A study of Mus musculus with 6 samples.

Results

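A group of 10 genes that tune the NF-κB pathway through ubiquitin was followed in neutrophils of cGAS-/- mice, untreated or exposed to LPS for 2 h. The group comprises *Tnfaip3*, which encodes A20, its binding partners *Tnip1*, *Tnip2*, *Tnip3*, *Tax1bp1* and *Itch*, the deubiquitinase genes *Cyld* and *Otud7b*, and the ubiquitin ligase genes *Rbck1* and *Peli1*. The genes were chosen by name, and all 10 were found among the 38739 genes of the table. Every one of them had a mean value of at least 1 scaled TPM over the 6 samples. In the untreated samples alone, the means of *Tnip3* (0.956) and *Otud7b* (0.992) were below 1. *Tnfaip3* rose after LPS and was the one member called; the other 9 were not called.

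Receptors such as TLR4 pass their signal to NF-κB through chains of ubiquitin that are built on adaptor proteins and kinases. A20 cuts and builds such chains and thereby ends the signal, and its gene is itself a classical target of NF-κB, so that the pathway feeds back on itself. The TNIP proteins bind A20 and ubiquitin chains, TAX1BP1 and ITCH bring A20 to its substrates, and CYLD and OTUD7B remove chains independently of A20. RBCK1 works on the opposite side as part of the complex that builds linear chains, and PELI1 is a ligase of the Toll-like and interleukin-1 receptor pathways.

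The promoter sequences of *Tnfaip3*, *Tnip1*, *Tnip3* and *Cyld* are shown because NF-κB is the pathway under study and *Cyld* differs from *Tnfaip3* in its values although both windows hold a match. They come from RefSeq on GRCm38.p6 and run 5′ to 3′ along the strand of the gene from 250 bases before to 50 bases after an annotated start. Capitals mark matches to the 10-base NF-κB consensus motif, searched on both strands with overlapping matches counted.
Tnfaip3 (chr10:19015361-19015660, minus strand): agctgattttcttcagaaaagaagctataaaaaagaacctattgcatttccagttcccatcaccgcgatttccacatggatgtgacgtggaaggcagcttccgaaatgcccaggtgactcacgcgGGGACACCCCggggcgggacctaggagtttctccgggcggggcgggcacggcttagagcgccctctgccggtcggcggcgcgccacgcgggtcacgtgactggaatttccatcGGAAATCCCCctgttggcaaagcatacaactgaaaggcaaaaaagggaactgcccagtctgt
Tnip1 (chr11:54962891-54963190, minus strand): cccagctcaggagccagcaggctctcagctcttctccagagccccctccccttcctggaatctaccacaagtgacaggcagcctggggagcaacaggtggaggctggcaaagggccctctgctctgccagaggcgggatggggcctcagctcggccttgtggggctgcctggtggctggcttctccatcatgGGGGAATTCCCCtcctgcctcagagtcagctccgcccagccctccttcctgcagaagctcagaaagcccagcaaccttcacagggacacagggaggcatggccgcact
Tnip3 (chr6:65590148-65590447, plus strand): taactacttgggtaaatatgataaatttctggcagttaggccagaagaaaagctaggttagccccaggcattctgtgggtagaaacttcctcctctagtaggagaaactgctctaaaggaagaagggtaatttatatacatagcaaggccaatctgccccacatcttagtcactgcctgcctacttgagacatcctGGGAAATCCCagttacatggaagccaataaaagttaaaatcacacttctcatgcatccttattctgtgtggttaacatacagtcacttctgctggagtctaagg
Cyld (chr8:88696778-88697077, plus strand): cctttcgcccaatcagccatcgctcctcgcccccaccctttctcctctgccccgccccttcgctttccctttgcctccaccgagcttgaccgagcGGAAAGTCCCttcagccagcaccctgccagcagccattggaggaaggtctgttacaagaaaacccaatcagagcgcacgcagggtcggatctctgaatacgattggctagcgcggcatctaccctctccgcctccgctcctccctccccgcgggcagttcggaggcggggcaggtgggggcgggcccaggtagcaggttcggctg

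The *Tnfaip3* window held a match at -125 to -116 and another at -12 to -3, counted from the start. In *Tnip1* the matches at -58 to -49, -57 to -48 and -56 to -47 overlapped and made up 1 run of 12 bases. *Tnip3* had a match at -54 to -45 that reads as a match on both strands, and *Cyld* had 1 match at -155 to -146. *Tax1bp1* held 1 match in its second window, at 35 to 44 after the start. In all, 5 of the 8 members with a window held a match, while 5.14% of 27025 genes with a window did so and 4.51% of all 32851 windows. The members were picked as genes of the NF-κB pathway, so this count was not tested. No match was found in the windows of *Tnip2*, *Rbck1* and *Peli1*, which says only that the motif is not written in those 300 bases. *Otud7b* and *Itch* were not searched. Each of the 11 member windows had 1 exact match on its own chromosome in GRCm39, on the strand of its gene. The other chromosomes were not searched for it.

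The neutrophils were washed from the peritoneum of cGAS knockout mice of the strain labelled C57B/L6 (C57BL/6J in the study's methods), which are without a sensor of DNA in the cytosol, after an injection of thioglycolate. RNA was taken from untreated cells (n = 3) and from cells after 2 h with LPS (n = 3), a cell wall component of Gram-negative bacteria, at 500 ng/mL according to the labels, while the methods of the study give a lower dose for the sequenced cells. Both groups carry the deletion, no wild-type library was analysed, and the methods describe the mice as young adult males. The labels do not say whether replicates came from separate mice or cultures, so p-values measure the spread between these samples only. The deleted gene, *Cgas*, had 0.203, 0.307 and 0.180 scaled TPM in untreated samples 1 to 3 and 0.184, 0.0713 and 0.0286 in LPS samples 1 to 3. Without a wild-type library for reference, these values could not check the labels.

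The values were taken as transcript abundances in TPM, adjusted for length, averaged by the authors within each gene and rescaled by 1 factor per sample. This was read from the values themselves, and they are here called scaled TPM. The number of transcripts behind each average is not given, so values are compared between samples and not between genes. TPM keeps no read count, and the depth of each library is therefore unknown. Untreated samples summed to 603599 to 713384 and LPS samples to 404675 to 465904. Protein-coding genes took 21.6 to 29.0% of the sum without LPS and 50.6 to 60.0% with LPS. Most of the rest was listed under pseudogenes, at 64.7 to 70.7% without LPS and 32.3 to 40.5% with LPS. The scale of every member depends on these shares, and the cause of their difference was not tested. Of the neutrophil markers, 14 of 16 were in the table, none at 0 throughout. Together they summed to 9817 to 28521 in untreated and 16251 to 54837 in LPS samples, with *S100a9* and *S100a8* as the largest. Both of these overlapped between the groups. The LPS samples lay wholly below the untreated ones in *Csf3r*, *Cxcr2*, *Il1r2* and *Ltf*, of which *Cxcr2* was called lower. They lay wholly above in *Hdc*, and the other listed markers overlapped. Markers of monocytes and macrophages (9 of 12 in the table, none at 0 throughout) summed to 165 to 202 and 273 to 420, with *Cd68* as the largest and *C1qb* called higher. Those of B cells (5 of 6) summed to 142 to 543 and 67.6 to 237, those of T cells (7 of 7) to 15.2 to 19.0 and 6.59 to 14.9, and those of mast cells (3 of 6) to 4.69 to 40.8 and 5.05 to 49.1. The eosinophil list (5 of 6, with *Epx* at 0) summed to 3.10 to 8.52 and 2.02 to 5.31, the erythroid list (4 of 5) to 15.0 to 1868 and 74.1 to 1823, and the mesothelial and stromal list (6 of 7) to 0.522 to 2.65 and 1.06 to 1.47. The part of these cells in the members' results was not tested, and in bulk RNA a change in the number of cells of a type and in RNA per cell cannot be told apart.

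*Tnfaip3* is encoded on chromosome 10 (18874201 to 18891405, minus strand, GRCm39). It was listed at 27.7, 9.49 and 7.81 scaled TPM in untreated samples 1 to 3 and at 142, 194 and 153 in LPS samples 1 to 3. The lowest LPS sample lay well above the highest untreated sample, and untreated sample 1 stood above the other untreated ones. The mean rose 10.9-fold, from 15.0 ± 11.0 to 163 ± 27.6 (SD, n = 3). On the log2(scaled TPM + 1) scale the change was 3.56 (standard error 0.51, 95% interval 2.32 to 4.79), with an unadjusted p of 3.9e-04 and a Benjamini-Hochberg adjusted p of 0.035 in limma. A call required that the log2 fold change exceed 2 in size and the unadjusted p stay under 0.01, limits taken from the study's methods. *Tnfaip3* was called under all 18 alternative settings. Its change was the 32nd largest among 6005 protein-coding genes with a mean of at least 1. The adjusted p was less stable. It was 0.064 without untreated sample 2, 0.074 without untreated sample 3, and 0.15, 0.081 and 0.16 without LPS samples 1, 2 and 3. It was 0.025 without untreated sample 1, the sample nearest to the LPS group.

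**Figure D1:**
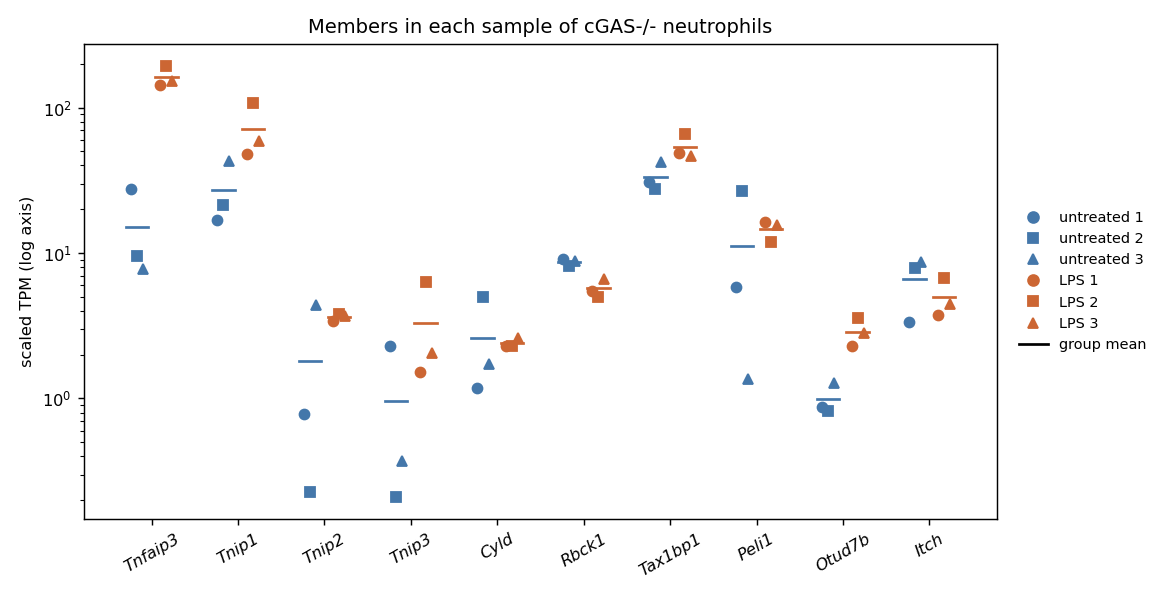
Values of the 10 members in each sample, in scaled TPM on a log axis, with untreated samples in blue, LPS samples in orange, a marker shape for each replicate number and a bar at each group mean. The groups are clearly apart in *Tnfaip3*, where the 3 LPS samples sit between 142 and 194 and the untreated samples reach at most 27.7, and they lie within each other's range in 5 of the members.

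Among the TNIP genes, *Tnip1* (chromosome 11, 54796320 to 54854661, minus strand) encodes the A20-binding protein ABIN1. It was listed at 16.8, 21.4 and 43.2 without LPS and at 47.9, 107 and 59.3 with LPS. Even the lowest LPS sample exceeded the highest untreated one, but the gap between untreated sample 3 and LPS sample 1 was small beside the spread within each group. The mean went from 27.2 ± 14.1 to 71.5 ± 31.6 (SD, n = 3), and the change of 1.39 on the log2 scale (standard error 0.49, 95% interval 0.20 to 2.58) did not pass (limma, adjusted p = 0.22). *Gpx3*, a gene on the other strand, shares 2066 bases with annotated *Tnip1* transcripts and was listed at 0, 2.07 and 0 in the untreated and 0.415, 4.03 and 0.712 in the LPS samples.

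*Tnip2* (chromosome 5, 34651772 to 34671388, minus strand) encodes ABIN2, which also holds the kinase TPL2 stable. Its values were 0.786, 0.229 and 4.39 in the untreated and 3.42, 3.82 and 3.71 in the LPS samples. The LPS samples were close together, whereas untreated sample 3 exceeded all of them and the other untreated samples were far below. The change of 1.03 (standard error 0.58, adjusted p = 0.43 in limma) did not pass, and was 1.65 (adjusted p = 0.10) without untreated sample 3. Stretches of at least 150 bases of annotated *Tnip2* transcripts were at least 95% identical to transcripts of 14 other genes.

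*Tnip3* (chromosome 6, 65502295 to 65611024, plus strand) encodes ABIN3, a form whose gene is known to respond to LPS in other cells. It was listed at 2.29, 0.210 and 0.371 in the untreated and at 1.53, 6.28 and 2.04 in the LPS samples. LPS sample 2 was highest, and untreated sample 1 exceeded the other LPS samples. The log2 change of 1.12 (standard error 0.60) did not pass (limma, adjusted p = 0.40). Most values of *Tnip2* and *Tnip3* lie near the pseudocount of 1, where the log2 scale understates changes. With a pseudocount of 0.1 their changes were 1.78 and 2.00, with adjusted p values of 0.40 and 0.34.

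*Tax1bp1* (chromosome 6, 52690676 to 52745153, plus strand) encodes an adaptor that binds ubiquitin and links A20 to its substrates. The untreated samples were at 30.6, 27.4 and 42.0 and the LPS samples at 48.9, 65.9 and 46.4. The groups did not overlap, although untreated sample 3 came close to LPS sample 3. The mean changed from 33.3 ± 7.70 to 53.8 ± 10.6 (SD, n = 3), with a log2 change of 0.68 (standard error 0.31, 95% interval -0.08 to 1.44) that did not pass (limma, adjusted p = 0.33). Scaled to the sum of protein-coding genes the change was 0.20.

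*Itch* (chromosome 2, 154975388 to 155069532, plus strand) encodes the ubiquitin ligase of the A20 complex. It was listed at 3.37, 7.87 and 8.67 in the untreated and at 3.76, 6.68 and 4.47 in the LPS samples. The groups lay within each other's range, and the log2 change of -0.30 (standard error 0.43, 95% interval -1.34 to 0.74) did not pass (limma, adjusted p = 0.71). Near-identical stretches of annotated *Itch* transcripts occurred in 17 other genes.

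Of the other deubiquitinases, *Cyld* (chromosome 8, 89423468 to 89478574, plus strand) removes linear and lysine-linked chains and is a tumour suppressor. It was at 1.18, 4.95 and 1.72 in the untreated and at 2.28, 2.31 and 2.58 in the LPS samples. The LPS samples were nearly equal and lay inside the untreated range. Its log2 change of 0.05 (standard error 0.45) had a 95% interval of -1.04 to 1.14, so that neither a doubling nor a halving could be told from no change (limma, adjusted p = 0.96). Under 8 of 18 alternative settings the change was below 0.

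*Otud7b* (chromosome 3, 96011735 to 96068446, plus strand) encodes Cezanne, a deubiquitinase that acts on TRAF3 in the non-canonical NF-κB pathway. The untreated samples were at 0.877, 0.826 and 1.27 and the LPS samples at 2.29, 3.56 and 2.80. Every LPS sample lay above every untreated sample, with both groups at low values. The mean went from 0.992 ± 0.245 to 2.88 ± 0.638 (SD, n = 3), a ratio of 2.91, and the log2 change was 0.96 (standard error 0.30, 95% interval 0.22 to 1.70). The unadjusted p was 0.019 and the adjusted p 0.18 in limma, so the gene was not called. Without the mean-variance trend in limma the adjusted p was 0.042.

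The ligase gene *Rbck1* (chromosome 2, 152154456 to 152174609, minus strand) encodes HOIL1, a subunit of the complex that builds linear ubiquitin chains. It was listed at 9.14, 8.16 and 8.79 in the untreated and at 5.52, 5.00 and 6.65 in the LPS samples. All LPS samples lay below all untreated samples, and the untreated samples differed little. The mean went from 8.70 ± 0.496 to 5.72 ± 0.847 (SD, n = 3), and the log2 change of -0.54 (standard error 0.27, 95% interval -1.20 to 0.13) did not pass (limma, adjusted p = 0.38). Scaled to the sum of protein-coding genes it was -0.96, with an adjusted p of 0.24. *Tbc1d20*, on the other strand, shares 1348 bases with annotated *Rbck1* transcripts and was listed at 16.6, 21.7 and 17.0 in the untreated and at 12.9, 20.2 and 11.9 in the LPS samples. The libraries are strand-specific per the labels, while the strand setting of Kallisto is not given in the sources used here.

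*Peli1* (chromosome 11, 21041243 to 21100582, plus strand) had values of 5.85, 26.5 and 1.37 in the untreated and 16.2, 11.9 and 15.7 in the LPS samples. The LPS samples were closer to each other than the untreated ones, of which sample 2 was above and samples 1 and 3 below every LPS sample. The log2 change of 1.02 (standard error 0.87, 95% interval -1.12 to 3.15) did not pass (limma, adjusted p = 0.55). It was 1.94 without untreated sample 2 and 0.17 without untreated sample 3. Annotated *Peli1* transcripts hold near-identical stretches of 41 other genes.

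**Figure D2:**
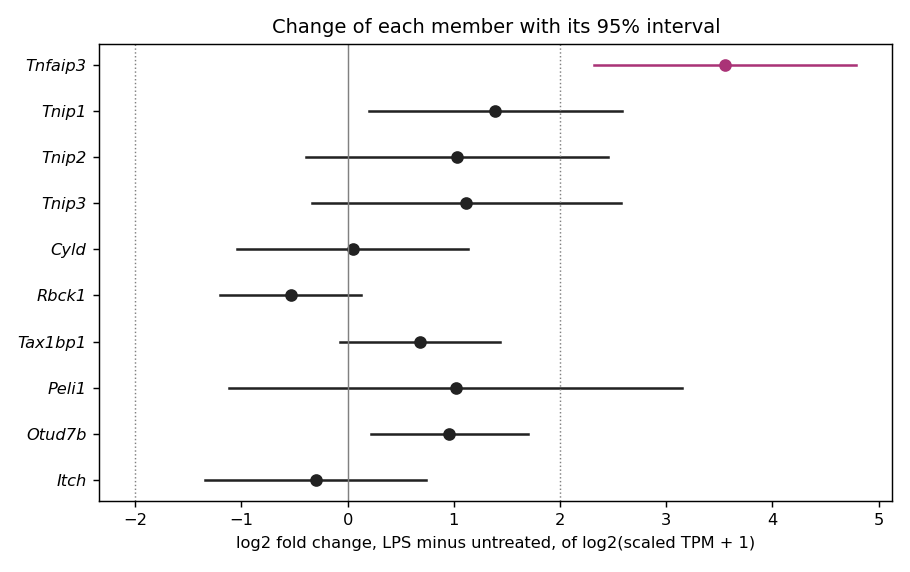
Change of each member after LPS on the log2(scaled TPM + 1) scale, with the limma estimate as a point and its 95% interval as a line. Dotted lines mark the limits of -2 and 2, and the interval of *Tnfaip3*, in purple, is the only one that lies wholly above 2.

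Of the 10 members, 8 had a higher and 2 a lower mean after LPS on the log2 scale. *Cyld*, counted here as higher, had a lower mean in scaled TPM with LPS (2.39) than without (2.62). As called by unadjusted p and fold limit, 1 member was higher, against 1.69% of the 23049 genes tested and 4.91% of the 6005 protein-coding genes with a mean of at least 1. By the same limits 0 members were lower (1.31% of all genes tested). At an adjusted p under 0.05, 1 member was higher, against 0.894% of all genes, and 0 were lower, against 0.946%. The LPS samples lay wholly above the untreated samples in 4 members (*Tnfaip3*, *Tnip1*, *Tax1bp1* and *Otud7b*), whereas 13.1% of all genes and 24.5% of the protein-coding genes with a mean of at least 1 showed this. They lay wholly below in 1 member, *Rbck1*, beside 9.75% of all genes and 10.1% of those protein-coding genes. The median log2 change of the members was 0.99, that of all genes tested 0.01 and that of the protein-coding genes with a mean of at least 1 was 0.37. Scaling each sample to the sum of its protein-coding genes moved the median of the latter to 0.02 and the calls over all genes from 389 higher and 301 lower to 221 higher and 516 lower. Under that scaling *Tnfaip3* changed by 3.08 (limma, adjusted p = 0.048) and *Tnip1* by 0.91. The other members changed by 0.82 (*Tnip3*), 0.69 (*Tnip2*), 0.65 (*Otud7b*), 0.62 (*Peli1*), 0.20 (*Tax1bp1*), -0.27 (*Cyld*), -0.72 (*Itch*) and -0.96 (*Rbck1*).

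Replicate spread differed between the groups. The coefficient of variation was larger among untreated than among LPS samples in 9 of 10 members, with *Rbck1* as the exception. Over the members its median reached 62.7% without and 18.3% with LPS. Across the 6005 protein-coding genes with a mean of at least 1 the medians were 69.5% and 26.7%, and 85.2% of these genes varied more among the untreated samples. The ratio of the highest to the lowest untreated sample was 19.4 in *Peli1*, 19.2 in *Tnip2* and 10.9 in *Tnip3*, but 1.12 in *Rbck1*. LPS sample 2, which had the largest summed value of its group, was the highest LPS sample in 7 of the 10 members.

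Ratios between members within a sample do not depend on how samples are scaled to each other. They were chosen after the values had been seen. The ratio of *Tnfaip3* to *Cyld* was 23.4, 1.92 and 4.54 in the untreated and 62.2, 84.2 and 59.3 in the LPS samples, and that of *Tnfaip3* to *Tax1bp1* was 0.906, 0.347 and 0.186 against 2.90, 2.95 and 3.30. For *Tnfaip3* to *Tnip1* the ratios were 1.65, 0.443 and 0.181 against 2.96, 1.81 and 2.59, where LPS sample 2 came closest to untreated sample 1. *Tnfaip3* to *Itch* ranged from 0.901 to 8.22 in the untreated and from 29.1 to 37.7 in the LPS samples, *Tnfaip3* to *Rbck1* from 0.888 to 3.03 and from 23.0 to 38.9, and *Tnip1* to *Rbck1* from 1.84 to 4.91 and from 8.68 to 21.5. The groups were apart in all 6 ratios, which is a description of pairs picked with their values in view. An exact two-sided permutation test gave p = 0.1 for each ratio (0.1 after Benjamini-Hochberg adjustment over 6 ratios), the smallest value that 3 against 3 samples allow, so no ratio could pass.

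**Figure D3:**
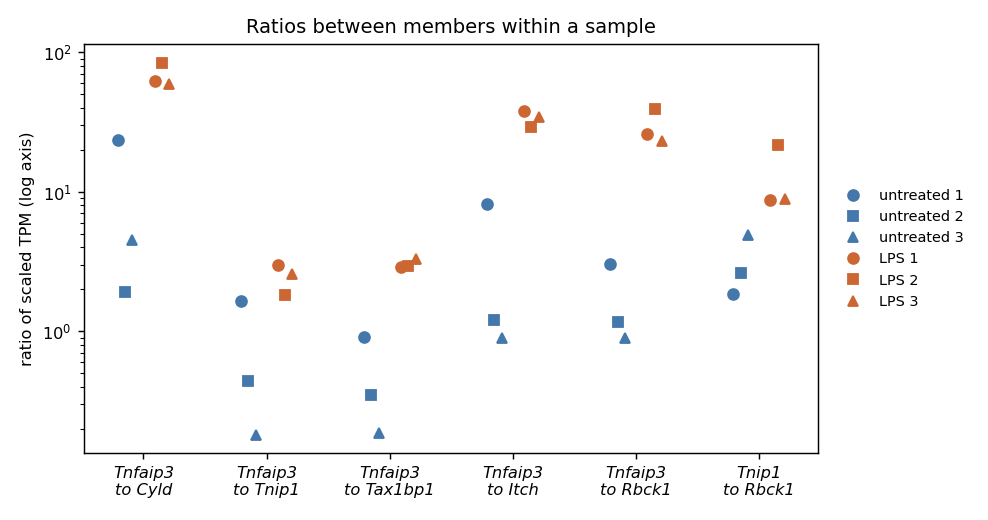
Ratios of scaled TPM between pairs of members within each sample, on a log axis, with untreated samples in blue, LPS samples in orange and a marker shape for each replicate number. In every pair the LPS samples lie above the untreated ones, from 59.3 to 84.2 against 1.92 to 23.4 for *Tnfaip3* to *Cyld*.

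The members were set beside a list of 123 gene names of the ubiquitin control of NF-κB. Some genes stood on it under an old and a new name. Of these names 82 are in the table, and 81 had a value above 0. This list, too, was drawn up with earlier results of these data known, and its counts are a description. Of these 81 genes, 12 were called higher and 1 lower by unadjusted p and fold limit, beside 1.69% and 1.31% of all genes tested and 4.91% called higher among protein-coding genes with a mean of at least 1. At an adjusted p under 0.05, 10 were higher and 1 lower, beside 0.894% and 0.946% of all genes. Their median log2 change was 0.45, beside 0.01 over all genes tested and 0.37 over those protein-coding genes. Without untreated sample 2, 19 were called higher and 2 lower. The 11 genes with an adjusted p under 0.05 became 7 without untreated sample 1, 2 without untreated sample 3, and 0 without LPS sample 1, 2 or 3. Counts over all genes fell too, from 206 higher and 218 lower to 117 and 111 without untreated sample 1. They were 67 and 78 without untreated sample 3. Without LPS samples 1, 2 and 3 they were 1 and 10, 6 and 22, and 3 and 19. Without untreated sample 2 there were 13 such pathway genes, with 217 higher and 252 lower over all genes. Among 11 adaptors and A20-linked proteins 0 were called higher and 1 lower, and among 23 deubiquitinases 1 was called higher and 0 lower. Of 29 ligases and their regulators 3 were called higher and 0 lower. Of 11 E2 enzymes, substrates and kinases 5 were called higher and 0 lower, and of 7 NF-κB inhibitors and subunits 3 were called higher and 0 lower.

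The largest change on this list was in *Nfkbib*, which encodes the inhibitor IκBβ, at 2.51, 4.20 and 5.33 scaled TPM in the untreated and 123, 115 and 129 in the LPS samples (log2 change 4.66, standard error 0.32, adjusted p = 0.0057). A stretch of 338 bases of its transcripts also occurs in another annotated gene. *Ripk2*, a kinase that carries ubiquitin chains below the NOD receptors, was at 1.64, 6.70 and 1.17 in the untreated and 54.5, 67.4 and 53.1 in the LPS samples (log2 change 4.06, adjusted p = 0.029). *Traf1*, an adaptor of TNF receptors, was at 3.22, 5.83 and 3.39 and at 58.1, 75.9 and 65.7 (log2 change 3.74, adjusted p = 0.011). These 3 genes were far apart between the groups in every sample. Of the kinases related to IKK, *Ikbke* was at 18.3, 42.5 and 9.89 in the untreated and 159, 412 and 219 in the LPS samples (log2 change 3.55, adjusted p = 0.053). *Tbk1* was at 8.26, 4.37 and 6.78 and at 46.6, 50.9 and 46.5 (log2 change 2.75, adjusted p = 0.021), and the ligase gene *Siah2* at 0.284, 0.582 and 0.242 and at 14.1, 5.23 and 13.6 (log2 change 3.03, adjusted p = 0.037). All adjusted p values are from limma. Near-identical stretches were also found between *Traf1* and 1 other gene (349 bases) and between *Tbk1* and 1 other gene (155 bases).

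In the other direction, *Tbkbp1*, which encodes an adaptor of TBK1 related to TANK, fell from 9.48, 9.53 and 10.2 scaled TPM in the untreated to 0.985, 1.27 and 1.27 in the LPS samples (log2 change -2.31, standard error 0.27, adjusted p = 0.022 in limma). The values within each group were close together. The deubiquitinase gene *Usp4* was at 14.6, 26.2 and 15.6 in the untreated and 5.02, 8.59 and 5.21 in the LPS samples. The log2 change of *Usp4*, -1.43, fell short of the fold limit, with an unadjusted p of 0.0081 (limma, adjusted p = 0.12). *Birc3*, a ligase gene and common NF-κB target, was at 101, 26.3 and 43.2 in the untreated and at 120, 189 and 149 in the LPS samples (log2 change 1.60, adjusted p = 0.20). *Nfkbia*, which encodes the inhibitor IκBα, was at 834, 251 and 277 in the untreated and at 1326, 1626 and 1606 in the LPS samples. Its log2 change of 1.96 fell just short of the fold limit of 2, with an unadjusted p of 0.0086 (limma, adjusted p = 0.12). As in *Tnfaip3*, untreated sample 1 was the highest of its group. Annotated transcripts of *Usp4* share near-identical stretches with 168 other genes and those of *Birc3* with 15.

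**Figure D4:**
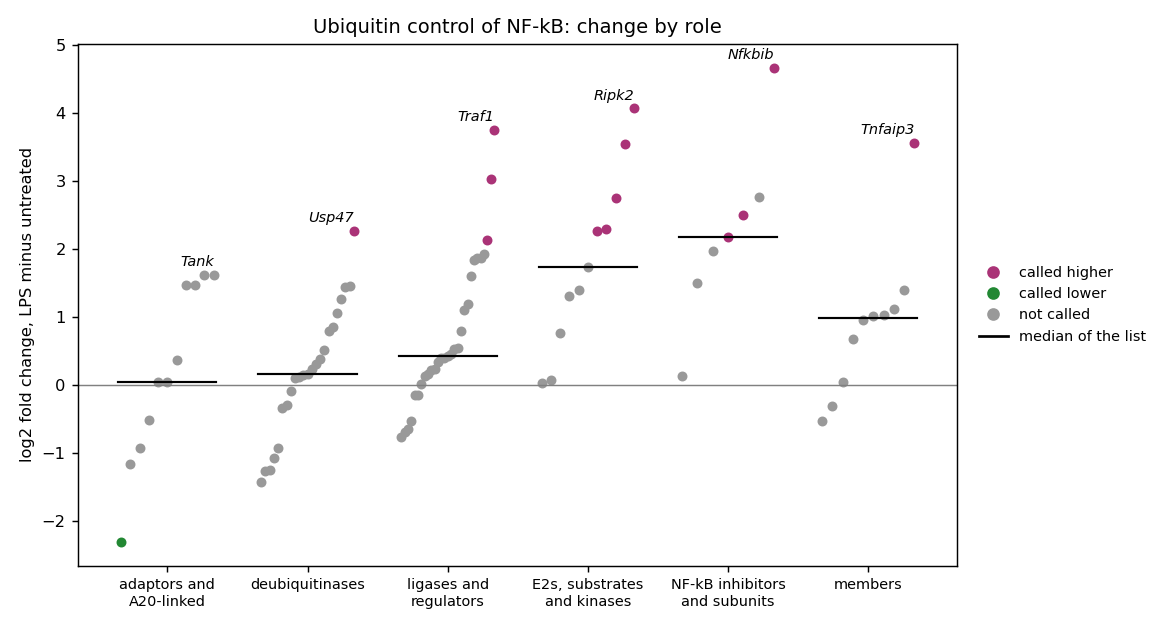
Log2 change after LPS of the other genes of ubiquitin control of NF-κB by role, and of the members at the right, with called genes in purple (higher) or green (lower), the rest in grey, and a bar at the median of each list. The medians run from 0.05 for adaptors and 0.17 for deubiquitinases to 1.73 for E2 enzymes, substrates and kinases and 2.17 for NF-κB inhibitors and subunits.

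The pattern of *Tnfaip3* over the 6 samples was compared with 12747 other protein-coding genes by the root mean square distance between log2 profiles, each centred on its own mean. The closest were *Osgin2* (distance 0.26), *Adora2a* (0.34), *Chtf8* (0.36), *Casp4* (0.38) and *Mrgpra2a* (0.39). *Casp4*, the caspase that senses LPS in the cytosol, was at 5.60, 2.66 and 3.92 scaled TPM in the untreated and 52.0, 75.7 and 60.4 in the LPS samples. *Adora2a*, an adenosine receptor gene, was at 3.43, 0.587 and 1.35 and at 17.4, 36.0 and 22.0, with the highest untreated value in sample 1 and the highest LPS value in sample 2, as in *Tnfaip3*. *Chtf8* and *Mrgpra2a* share long near-identical stretches with *Derpc* (2673 bases) and *Mrgpra2b* (1275 bases), so the values within these pairs are uncertain.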

How the data were processed

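RNA of 3 untreated and 3 LPS samples was analysed, with groups and replicate numbers taken from the sample titles. According to the study's methods and the submitters' processing notes, the authors aligned reads to GRCm39 with STAR (mm10 and fastp are also named, with no role given) and estimated transcript abundance by Kallisto, with edgeR used for normalization. The deposited values, although named normalized counts, were taken as TPM. Untreated sample 3 has a factor of 1. For each of the 5 other samples a factor (0.861 to 1.12) was chosen to give 6 digits most often. This was done on 400 values of genes with short decimals, of which 71.5 to 75.0% then had 6 digits. Among 3776 to 4388 values not used for that choice the share was 70.0 to 72.8%. With a slightly different factor it was 11.4 to 12.5%. Averaging over transcripts was read from long decimals, 87.1% of 1377 of which were quotients by whole numbers up to 100 (11 for *Cyld*). Depth is unknown, so no count test was run.

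The 23049 genes above 0 in at least 1 sample were fitted with limma 3.58.1 in R 4.3.3 (lmFit, eBayes with a trend) on log2(value + 1), and p values were adjusted over all of them. Gene types came from GENCODE M39 or RefSeq, near-identical stretches from blastn 2.17.0 (at least 95% over 150 bases). The members and lists were chosen with earlier results of these data known. All members are named, and of the other pathway genes the 6 called ones with the largest rise, the 2 with the largest fall, *Birc3*, *Traf1* and *Nfkbia*. The fit was also run on simulated data with the same spread in both groups, so the unequal spread seen here was not tested. Alternatives were 15 planned settings and 3 added after seeing the data.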

Additional observations from a re-analysis of the deposited data

How the results depend on the processing

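Under 18 alternative settings 9 members kept the sign of their change, and *Tnfaip3* was the one member called by unadjusted p and fold limit in each. *Cyld* fell below 0 in 8 of them, with -0.012 at a pseudocount of 5, -0.060 with quantile normalization, -0.031 with median centring, -0.27 with scaling to the sum of protein-coding genes, with and without the replicate block, -0.34 with that scaling and a pseudocount of 0.1, and -0.25 to 0.48 as each sample was left out; the cause was not tested. The number of members with an adjusted p under 0.05, 1 as reported, was 0 with genes at 0 kept (38739 genes tested), 2 without the trend, and 0 to 1 as each sample was left out, which leaves fewer samples. Of the other pathway genes, 6 were called higher and 0 lower at a pseudocount of 5, 2 lower with scaling to protein-coding genes and a pseudocount of 0.1, and 11 to 19 higher and 1 to 2 lower as each sample was left out. Those with an adjusted p under 0.05, 11 as reported, numbered 19 among the genes with a mean of at least 1, 18 without the trend and 0 to 13 as each sample was left out. Over all genes tested the reported counts were 206 higher and 218 lower. They were 557 and 483 among genes with a mean of at least 1, and 687 and 611 without the trend.

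Samples of the same number correlated in their deviations from the group means by 0.10, 0.22 and 0.093. For untreated samples 1 to 3, the mean correlation with LPS samples of other numbers was -0.029, -0.15 and -0.026. The reported fit did not take the numbers as pairs, although each sample correlated best with its own number. With the replicate block 0 members and 0 other pathway genes had an adjusted p under 0.05, also together with the protein-coding scaling, and the change of *Tnfaip3* was still called (adjusted p = 0.10). The loss was not particular to these genes. With the block, 1 gene was higher and 15 were lower at an adjusted p under 0.05 over all genes, beside 206 and 218 as reported. By unadjusted p and fold limit, the calls over all genes were 387 higher and 303 lower with the block. Over all genes, 856 were higher and 493 lower at a pseudocount of 0.1, and 129 and 168 at a pseudocount of 5. Depth is unknown, so no counting error could be given.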
